A study of Mus musculus with 16 samples.

Results

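The genes described here are 10 genes of hepatic de novo lipogenesis, the making of fatty acids from carbohydrate carbon. They were chosen by name: Fasn, Acaca, Acacb, Acly, Scd1, Elovl6, Me1, Srebf1, Thrsp and Pklr. They are 10 of the 55487 genes in the deposited table, and all 10 passed the filter on low counts, which kept 14553 genes for testing. Whole liver RNA came from wild type C57BL/6J mice aged 12 weeks, and 4 libraries were sequenced in each of 4 groups. The controls breathed room air, and the other groups were exposed to hypoxia that was sustained, intermittent or, under the name overlap hypoxia, both combined, as the series title has it. The labels name no other allele, agent or batch, and they give no oxygen level, duration of exposure, feeding state or hour of collection.

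In this pathway glucose carbon passes through glycolysis, where liver pyruvate kinase (Pklr) makes pyruvate, and leaves the mitochondria as citrate. ATP citrate lyase (Acly) splits citrate into acetyl-CoA, the acetyl-CoA carboxylases (Acaca and Acacb) make malonyl-CoA, and fatty acid synthase (Fasn) builds palmitate from both with NADPH, part of which comes from malic enzyme (Me1). Elovl6 lengthens palmitate, and Scd1 puts a double bond into the product. The transcription factors SREBP-1 (encoded by Srebf1) and ChREBP (encoded by Mlxipl) raise transcription of these genes after carbohydrate feeding, and Thrsp (SPOT14) is a small protein that promotes lipogenesis. In liver the pathway is known for a wide swing between the fed and the fasted state.

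Levels are given in CPM, the usual unit of read counts set to a common library size, here with TMM scaling. Library totals lay between 10940275 counts (overlap hypoxia replicate 3) and 64789635 counts (sustained hypoxia replicate 2). The extraction protocol names retina while the tissue label is liver; 8 hepatocyte markers summed to 58994 to 92028 CPM in the 16 libraries. The groups differed in their content of ribosomal RNA, which made up 5.22% ± 3.71 of room air counts (mean ± SD, n = 4), against 2.16% ± 0.698 under sustained, 25.2% ± 6.996 under intermittent and 9.59% ± 5.82 under overlap hypoxia. Every intermittent hypoxia library (18.5% to 34.8%) lay above those of room air (at most 10.2%), sustained (at most 2.77%) and overlap hypoxia (at most 16.8%). A fit with the ribosomal share as a covariate was run, but it cannot separate that share from the intermittent exposure. The part of this difference in the results below was not tested in any other way. The 10 genes together held 0.499% ± 0.220, 0.636% ± 0.234, 0.380% ± 0.0957 and 0.591% ± 0.337 of the counts in the same order of groups, and these ranges overlap in every pair of groups. Most of this sum was Scd1, at a mean of 4176 CPM in room air, where Thrsp came next with 263 CPM. The counts it is a share of include ribosomal RNA, so a higher ribosomal content by itself lowers these values.

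All coordinates are those of GRCm38, by the GENCODE M21 annotation. Of the 10 genes, 4 lie on chromosome 11. These are Fasn (ENSMUSG00000025153, 120805846 to 120824547, minus strand), Acaca (ENSMUSG00000020532, 84129672 to 84401651, plus), Acly (ENSMUSG00000020917, 100476353 to 100528000, minus) and Srebf1 (ENSMUSG00000020538, 60199089 to 60222581, minus). Chromosome 3 holds Elovl6 (ENSMUSG00000041220, 129532355 to 129638495, plus) and Pklr (ENSMUSG00000041237, 89136142 to 89146784, plus). The others are Acacb on chromosome 5 (ENSMUSG00000042010, 114146535 to 114250761, plus), Thrsp on chromosome 7 (ENSMUSG00000035686, 97412938 to 97417730, minus), Me1 on chromosome 9 (ENSMUSG00000032418, 86581371 to 86695953, minus) and Scd1 on chromosome 19 (ENSMUSG00000037071, 44394455 to 44407879, minus). Counts are summed over the exons of a gene, so the SREBP-1a and SREBP-1c transcripts of Srebf1 are not told apart. The exons of Pklr lie over 21.97% of their length opposite those of Hcn3, and no source used here states the strand setting of the counting; Hcn3 held between 3.30% and 13.6% as many counts as Pklr. Words of 50 bases shared with a processed copy made up 30.43% of Acaca and 28.34% of Me1, but the copies held at most 0.275% and 0.0398% as many counts as their parent genes.

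Bases before a start site are shown for 3 members, Fasn, Pklr and Srebf1, as a description. Whether they bear on the levels of the members was not tested. The sequences are from RefSeq (GRCm38.p6), 5′ to 3′ on the strand of the gene, in lower case, with motif matches in capitals. Fasn (chr11:120824548-120824697, minus strand) holds 3 CCAAT boxes, of which 2 overlap head to head. Pklr (chr3:89136423-89136542, plus strand) holds a carbohydrate response element, the binding site of ChREBP, and a CCAAT box. Srebf1 (chr11:60210472-60210591, minus strand, before the most downstream of its 3 listed starts) holds 2 GC boxes and a CCAAT box.
Fasn: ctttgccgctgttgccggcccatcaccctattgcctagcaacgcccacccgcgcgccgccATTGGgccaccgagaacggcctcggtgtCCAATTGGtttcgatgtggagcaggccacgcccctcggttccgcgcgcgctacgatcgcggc
Pklr: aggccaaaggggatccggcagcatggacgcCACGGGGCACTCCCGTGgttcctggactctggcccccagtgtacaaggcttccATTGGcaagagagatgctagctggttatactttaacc
Srebf1: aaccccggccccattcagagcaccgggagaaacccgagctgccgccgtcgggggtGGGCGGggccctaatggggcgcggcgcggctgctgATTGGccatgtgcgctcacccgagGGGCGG

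The search covered 13 windows of 250 bases before a listed start for 9 of the 10 members, on both strands. The carbohydrate response element was searched as CACGNG followed after 5 bases by CNCGTG, and was found in 1 member window (Pklr) and in 13 of all 32851 windows (0.0396%). CCAAT was found in 7 windows of 6 members (33.8% of all windows) and the GC box GGGCGG in 4 windows of 3 members (32.7% of all windows). The SREBP site TCACNCCAC and the E-box CACGTG were in none of the 13, against 1.05% and 6.02% of all windows. A match is a description of the letters, and the absence of one says only that these letters are not in these windows.

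The plot of levels relative to each gene's own mean shows the main feature of the data, which is that most members were high or low together in the same libraries. In sustained hypoxia, replicates 1 to 3 were high and replicate 4 was not. In overlap hypoxia, replicate 2 was high and the other 3 libraries were not. Intermittent hypoxia libraries lay near room air for most members. Sustained hypoxia replicate 4 was below the other 3 libraries of its group for 10 of 10 members, at a median of 0.462 of their mean (range over members 0.199 to 0.719). Overlap hypoxia replicate 2 was above the other 3 libraries of its group for 10 of 10 members, at a median of 2.46 times their mean (range 1.80 to 5.004). It had the highest level of all 16 libraries for 8 members, and the second highest for Me1 and Srebf1. Both libraries carry their group's labels and stay in all values below, with values without them beside many of the results they move.

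The globin genes, markers of red blood cells, were high in the same libraries. The adult beta-globin gene Hbb-bs stood at 1030.0, 855, 969 and 194 CPM in sustained hypoxia replicates 1 to 4 and at 168, 575, 120.3 and 61.98 CPM in overlap hypoxia. Its levels were 209, 380.1, 107 and 254 CPM in room air and 152, 74.3, 109.1 and 267 CPM in intermittent hypoxia. Sustained hypoxia replicates 1 to 3 and overlap hypoxia replicate 2 were its 4 highest libraries, and also those of Hba-a1, Hba-a2 and Hbb-bt. The same 4 libraries were the highest for Acly, Elovl6, Thrsp and Pklr, but not for the other members. For Fasn, intermittent hypoxia replicate 3 (129 CPM) was above sustained hypoxia replicate 3 (115 CPM). The globin copies are near-identical, so their separate values are uncertain. The erythroid genes Alas2 (25.3 to 83.1 CPM) and Slc4a1 (at most 0.311 CPM, and 0 in 8 libraries) did not show this split. The 6 erythroid markers summed to 252 to 712 CPM in room air, 418 to 2076 CPM in sustained, 398 to 831 CPM in intermittent and 219 to 1334 CPM in overlap hypoxia. Of the 5 tested, 0 were called in sustained hypoxia against room air by edgeR, beside 0.0481% of all genes. An unadjusted p under 0.05 was found for 4 of the 5, beside 1672 of all 14553 genes. Their median log2 fold change was 1.68. Of the same 5, 2 (Alas2 and Hbb-bs) were called higher in sustained than in intermittent hypoxia, where 38.4% of all genes were called in either direction. The part of the erythroid genes in the members' values was not tested.

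**Figure D1:**
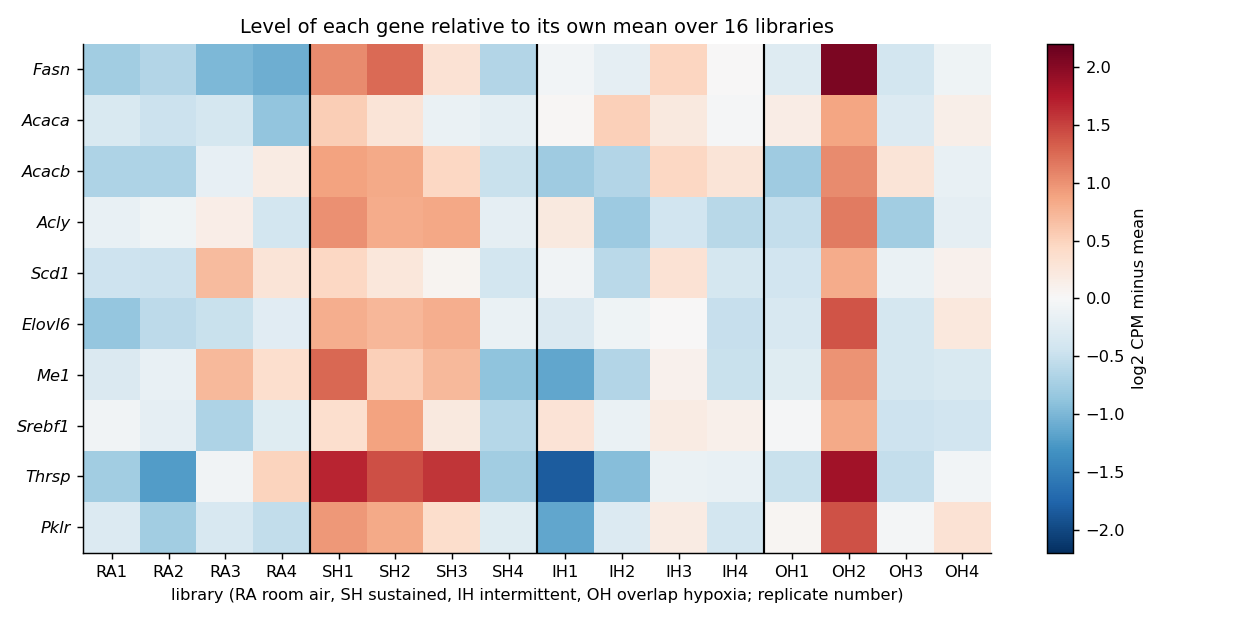
Heat map of the 10 genes (rows) in 16 libraries (columns), coloured by log2 CPM minus the gene's mean over all libraries. Columns SH1 to SH3 and OH2 are high for most genes, while SH4 and the other 3 overlap hypoxia libraries are not; the median over the genes is 1.10 in OH2, 0.924 in SH1 and −0.45 in SH4.

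Fasn, the synthase itself, was higher in all 12 hypoxic libraries than in any room air library. It stood at 54.6, 58.7, 46.5 and 43.8 CPM in room air replicates 1 to 4, and at 189, 219.9, 115 and 59.0 CPM in sustained hypoxia. Its levels in intermittent hypoxia were 88.3, 80.9, 129 and 93.2 CPM, and those in overlap hypoxia were 75.6, 387, 69.7 and 86.4 CPM. The room air libraries spread little (50.9 ± 6.94 CPM, mean ± SD, n = 4), sustained hypoxia spanned 3.73 times from its replicate 4, just above room air, to its replicate 2, and the overlap hypoxia mean of 155 ± 155 CPM (n = 4) rested on replicate 2. The log2 fold changes against room air were 1.52 (SE 0.549) in sustained, 0.94 (SE 0.543) in intermittent and 1.61 (SE 0.551) in overlap hypoxia. None passed edgeR's quasi-likelihood test over all genes (Benjamini-Hochberg adjusted p = 0.321, 0.196 and 0.105). Without overlap hypoxia replicate 2 the Fasn value in overlap hypoxia was 0.609 (edgeR adjusted p = 0.271), and that in intermittent hypoxia, 0.934, passed the test (edgeR adjusted p = 0.026). With offsets for gene length and GC content the intermittent hypoxia value of Fasn was −0.117 (edgeR adjusted p = 0.890). In whole tissue, a change in the number of cells of a type and a change in RNA per cell cannot be told apart, here or for any gene below.

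Acaca, which encodes the cytosolic acetyl-CoA carboxylase that supplies the synthase, was the only member called against room air. It stood at 17.4, 15.7, 16.8 and 12.0 CPM in room air and at 31.9, 26.7, 19.8 and 18.8 CPM in sustained hypoxia. In intermittent hypoxia it stood at 22.2, 31.3, 25.4 and 21.4 CPM, and in overlap hypoxia at 24.5, 39.7, 17.8 and 23.8 CPM. No hypoxic library overlapped the room air libraries, although overlap hypoxia replicate 3 and sustained hypoxia replicates 3 and 4 lay close to them. The log2 fold change was 0.65 (SE 0.216, edgeR adjusted p = 0.253) in sustained, 0.69 (SE 0.216, adjusted p = 0.0168) in intermittent and 0.78 (SE 0.217, adjusted p = 0.0399) in overlap hypoxia. Acaca thus rose about equally in intermittent and overlap hypoxia, and the 3 hypoxic groups did not separate from each other: the differences between them lay between −0.04 and 0.13, with edgeR adjusted p from 0.796 to 0.895. The call in intermittent hypoxia was lost in 4 of 25 alternatives and the call in overlap hypoxia in 9 of 25. The fit without overlap hypoxia replicate 2 was among those that lost the overlap hypoxia call. Acaca has the greatest total exon length of the 10 genes (17.07 kb). With offsets for length and GC content its log2 fold change was 0.0699 in intermittent hypoxia (edgeR adjusted p = 0.854) and 0.585 in overlap hypoxia (adjusted p = 0.184).

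Acacb, the carboxylase of the outer mitochondrial membrane, whose malonyl-CoA restrains fatty acid entry into mitochondria, had no called difference. Its room air levels were 8.67, 8.68, 12.2 and 15.8 CPM and its sustained hypoxia levels 25.9, 24.9, 19.0 and 9.88 CPM. It stood at 8.07, 8.96, 19.0 and 16.9 CPM in intermittent hypoxia and at 8.10, 28.8, 17.0 and 12.4 CPM in overlap hypoxia. Sustained hypoxia replicates 1 to 3 were above every room air library, and the other groups straddled room air. The log2 fold changes were 0.82 (SE 0.416), 0.22 (SE 0.417) and 0.55 (SE 0.418) in sustained, intermittent and overlap hypoxia, with edgeR adjusted p of 0.485, 0.714 and 0.480. Per kilobase of exon, room air held 1.18 ± 0.353 CPM of Acacb and 0.907 ± 0.142 CPM of Acaca (n = 4), the lowest levels of the 10 genes.

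Acly, which opens the pathway in the cytosol, showed the split among libraries plainly. Room air libraries held 45.8, 47.8, 56.5 and 38.4 CPM, and sustained hypoxia libraries 102, 90.1, 92.3 and 44.6 CPM. Intermittent hypoxia libraries held 59.4, 29.4, 38.2 and 33.3 CPM, and overlap hypoxia libraries 35.5, 113, 30.1 and 44.7 CPM. Sustained hypoxia replicates 1 to 3 and overlap hypoxia replicate 2 were far above the room air libraries, while 3 intermittent and 2 overlap hypoxia libraries were below the lowest room air library. Acly had log2 fold changes of 0.80 (SE 0.391), −0.23 (SE 0.390) and 0.25 (SE 0.390) in sustained, intermittent and overlap hypoxia (edgeR adjusted p = 0.461, 0.676 and 0.766). The overlap value turned to −0.35 without replicate 2 (edgeR adjusted p = 0.485).

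Me1, the cytosolic malic enzyme that yields NADPH, had its lowest group mean in intermittent hypoxia (139.7 ± 50.4 CPM, n = 4). It stood at 156, 174, 316.99 and 249.8 CPM in room air and at 467, 278, 319.3 and 105 CPM in sustained hypoxia. It stood at 88.0, 124, 208 and 139 CPM in intermittent hypoxia and at 161, 384, 149 and 154 CPM in overlap hypoxia. The room air libraries themselves differed by 2.04 times, and all groups overlapped them. No Me1 difference from room air passed edgeR's test: the log2 fold changes were 0.38 (SE 0.443), −0.68 (SE 0.445) and −0.08 (SE 0.443), with adjusted p of 0.821, 0.253 and 0.942. In overlap hypoxia the value was −0.534 without replicate 2 (edgeR adjusted p = 0.485).

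**Figure D2:**
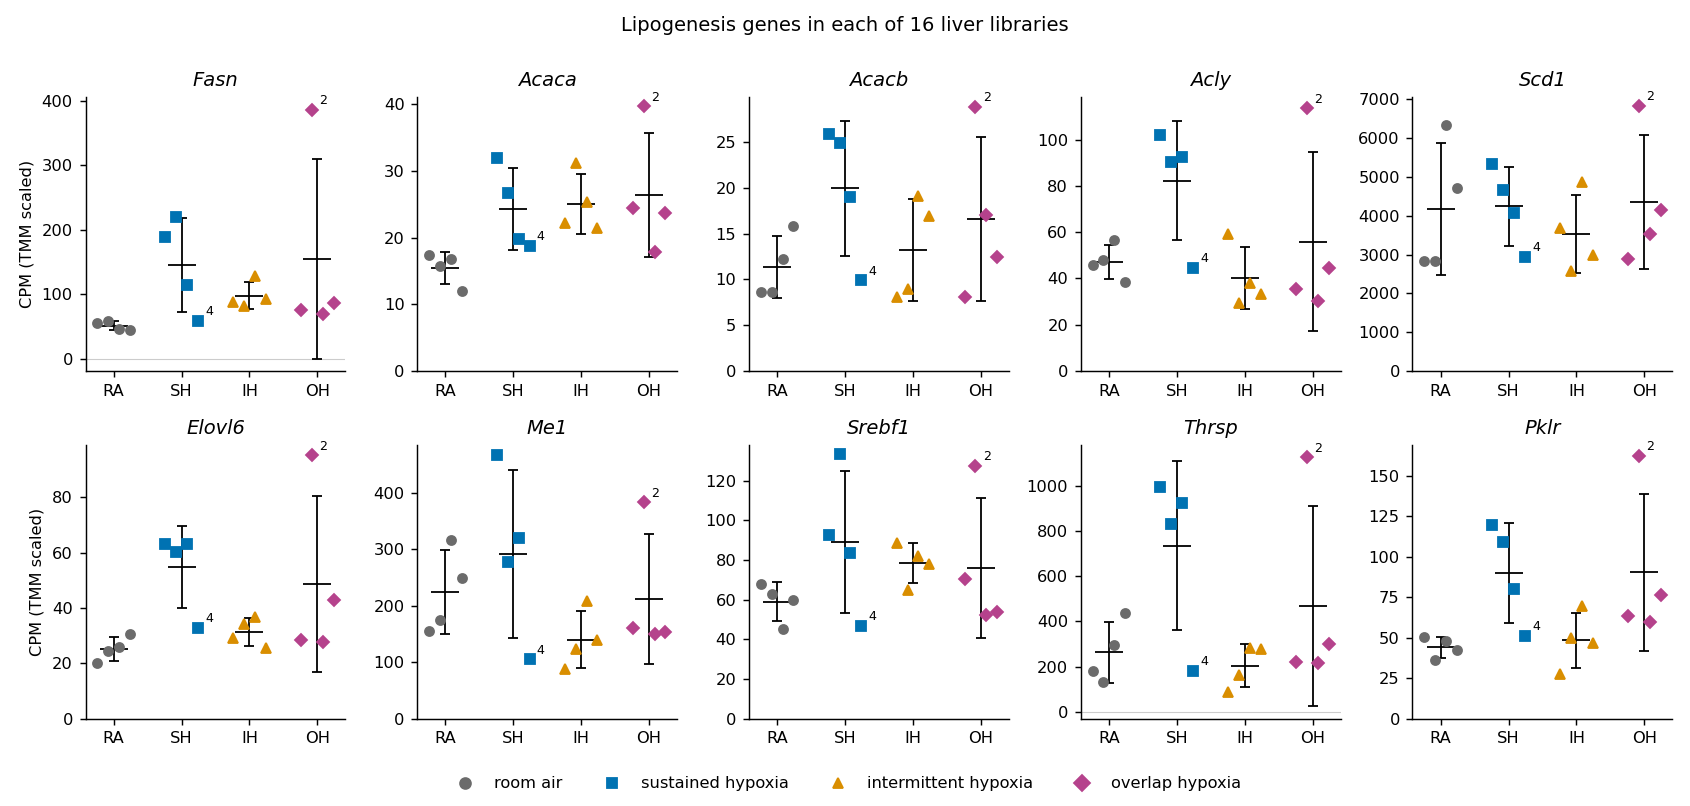
CPM of each gene in each library (points, ordered by replicate within a group) with the group mean and SD (bars, n = 4), on linear axes that include 0. RA, SH, IH and OH are room air, sustained, intermittent and overlap hypoxia, and the digits mark sustained hypoxia replicate 4 and overlap hypoxia replicate 2; Fasn in OH runs from 69.7 to 387 CPM.

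Elovl6, the elongase that takes palmitate to stearate, had the lowest p of the members in sustained hypoxia. Its levels were 20.03, 24.4, 25.9 and 30.6 CPM in room air and 63.1, 60.2, 63.1 and 32.8 CPM in sustained hypoxia. Intermittent hypoxia gave 29.0, 34.0, 36.7 and 25.5 CPM, and overlap hypoxia 28.6, 95.0, 27.6 and 42.8 CPM. Replicates 1 to 3 of sustained hypoxia lay close together and well above room air, and replicate 4 lay just above the highest room air library. The log2 fold change of Elovl6 was 1.12 (SE 0.344, edgeR adjusted p = 0.236) in sustained, 0.31 (SE 0.342, adjusted p = 0.511) in intermittent and 0.95 (SE 0.344, adjusted p = 0.115) in overlap hypoxia. In sustained hypoxia it passed with DESeq2 (1.12, adjusted p = 0.0239), with limma-voom (1.12, adjusted p = 0.0295) and in edgeR without overlap hypoxia replicate 2 (1.12, adjusted p = 0.0269). The overlap hypoxia value was 0.395 without that library (edgeR adjusted p = 0.281).

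Scd1, the stearoyl-CoA desaturase, was the most abundant member and the one that differed least between groups. It stood at 2826, 2823, 6337 and 4718 CPM in room air and at 5339, 4657, 4062 and 2941 CPM in sustained hypoxia. Intermittent hypoxia gave 3674, 2584, 4873 and 2980.1 CPM and overlap hypoxia 2894, 6836, 3528 and 4145 CPM. Room air alone spanned 2.24 times, and 1 of 12 hypoxic libraries (overlap hypoxia replicate 2) was above the highest room air library. The log2 fold changes against room air were 0.03 (SE 0.301), −0.24 (SE 0.302) and 0.06 (SE 0.301) in sustained, intermittent and overlap hypoxia, with edgeR adjusted p of 0.986, 0.560 and 0.935. Per kilobase of exon Scd1 held 854 ± 346 CPM in room air, against 120 ± 61.9 CPM for Thrsp and 4.65 ± 0.634 CPM for Fasn (n = 4 each).

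Srebf1, whose SREBP-1c product drives the pathway under insulin, varied by 2.97 times over the 16 libraries. It stood at 67.9, 62.7, 45.0 and 59.6 CPM in room air and at 92.7, 133, 83.3 and 46.7 CPM in sustained hypoxia. It stood at 88.7, 65.01, 81.9 and 77.8 CPM in intermittent hypoxia and at 70.4, 127, 52.2 and 53.9 CPM in overlap hypoxia. Of the hypoxic libraries, 3 of the sustained, 3 of the intermittent and 2 of the overlap group were above the highest room air library, and sustained hypoxia replicate 4 was the second lowest of all 16. Srebf1 had log2 fold changes of 0.60 (SE 0.299), 0.41 (SE 0.299) and 0.37 (SE 0.299) in sustained, intermittent and overlap hypoxia (edgeR adjusted p = 0.468, 0.300 and 0.503). The last value was 0.00611 without overlap hypoxia replicate 2 (edgeR adjusted p = 0.992).

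Pklr, the liver pyruvate kinase and a ChREBP target, was above all room air libraries in every sustained and every overlap hypoxia library. Room air held 50.2, 35.9, 48.2 and 42.2 CPM, and sustained hypoxia 119, 109, 80.1 and 51.3 CPM. Intermittent hypoxia held 27.8, 49.8, 69.5 and 46.6 CPM, and overlap hypoxia 63.2, 162, 59.7 and 76.3 CPM. Overlap hypoxia was therefore above room air also in its 3 lower libraries, which was not so for Acly, Me1 or Thrsp. The log2 fold change of Pklr was 1.03 (SE 0.352, edgeR adjusted p = 0.288) in sustained, 0.13 (SE 0.349, adjusted p = 0.796) in intermittent and 1.04 (SE 0.352, adjusted p = 0.0960) in overlap hypoxia. It passed in sustained hypoxia with DESeq2 (adjusted p = 0.0454) and limma-voom (adjusted p = 0.0477), and in overlap hypoxia with DESeq2 (adjusted p = 0.0126). The overlap value of Pklr without overlap hypoxia replicate 2 was 0.596 (edgeR adjusted p = 0.203).

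Thrsp, the SPOT14 gene, had the widest range of the 10, 12.8 times between its lowest and its highest library. It stood at 183, 134, 296 and 439 CPM in room air and at 996, 833, 926 and 183 CPM in sustained hypoxia. It stood at 88.0, 164, 284 and 279 CPM in intermittent hypoxia and at 222, 1126, 218 and 301 CPM in overlap hypoxia. The same 4 libraries, sustained hypoxia replicates 1 to 3 and overlap hypoxia replicate 2, were at 833 CPM or more, and the other 12 were at 439 CPM or less. Thrsp had log2 fold changes of 1.48 (SE 0.676), −0.37 (SE 0.663) and 0.83 (SE 0.667) in sustained, intermittent and overlap hypoxia (edgeR adjusted p = 0.429, 0.702 and 0.508). The Thrsp value in overlap hypoxia without its replicate 2 was −0.0868 (edgeR adjusted p = 0.952).

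In sustained hypoxia against room air, 0 of 10 members passed edgeR's test, beside 0.0481% of all 14553 genes (7 genes). All 10 values were positive, with a median log2 fold change of 0.81 against −0.01 over all genes tested. An unadjusted p under 0.05 was found for 5 members, beside 1672 of all 14553 genes. DESeq2 and limma-voom each called 2 members, Elovl6 and Pklr. The 4 libraries lay above the 4 room air libraries for Fasn, Acaca, Elovl6 and Pklr, 4 of 10 members, beside 4.6% of all genes. Without sustained hypoxia replicate 4 the median of the members was 1.02, and still none was called. Markers of fat cells stood out in 1 library of this group: the 10 adipocyte markers summed to 85.4 CPM in sustained hypoxia replicate 2, against 16.6 to 44.7 CPM in the other 15 libraries. The fat cell hormone gene Adipoq was at 4.11 CPM there and at 0 in 13 libraries. Without sustained hypoxia replicate 2 the Fasn value was 1.25 (edgeR adjusted p = 0.661), the median of the members was 0.726, and 9 of 10 were positive. In overlap hypoxia replicate 2 the adipocyte sum was 44.7 CPM, the second highest, with Adipoq at 0.

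In intermittent hypoxia against room air 1 of 10 members, Acaca, was called, beside 37.1% of all genes. The members had 6 positive and 4 negative values with a median of 0.18, against 0.03 over all genes. Fasn and Acaca, 2 of 10, lay above all room air libraries, beside 17.4% of all genes. The share of members called is thus below that of all genes, and the share without overlap is close to it. The ribosomal share was higher in every library of this group than in any other library, so a fit with it as a covariate cannot separate share and exposure. In that fit edgeR called 77 genes and no member, and the median of the members was 0.809. With length and GC offsets it called 4937 genes and no member, and the median was −0.20.

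In overlap hypoxia against room air 1 of 10 members, again Acaca, was called, beside 6.29% of all genes. Of the 10 values 9 were positive and that of Me1 negative, with a median of 0.66 against 0.03 over all genes. An unadjusted p under 0.05 was found for 4 members, beside 3320 of all 14553 genes. Fasn, Acaca and Pklr, 3 of 10, lay above all room air libraries, beside 6.59% of all genes. Without overlap hypoxia replicate 2 the median of the members was 0.0656, with 6 positive values, and no member was called. These comparisons share the room air libraries. Fasn and Acaca were above every room air library in all 12 hypoxic libraries, as were 0.818% of all genes (119 genes). Markers of other liver cells moved with the groups as well. Of 8 Kupffer cell markers, 6 fell in intermittent and 6 in overlap hypoxia, beside 37.1% and 6.29% of all genes called in either direction. The sum of the 8 lay between 76.5 and 135 CPM in room air and between 54.3 and 91.8 CPM in sustained hypoxia. It lay between 33.3 and 56.9 CPM in intermittent and between 34.2 and 39.4 CPM in overlap hypoxia. Of 8 sinusoidal endothelial markers, 4 fell in overlap hypoxia, with sums of 48.2 to 86.9 CPM against 102 to 127 CPM in room air. None of the defining Kupffer cell markers Clec4f, Vsig4 and Timd4 was at 0 in any library. Their part in the members' values was not tested.

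**Figure D3:**
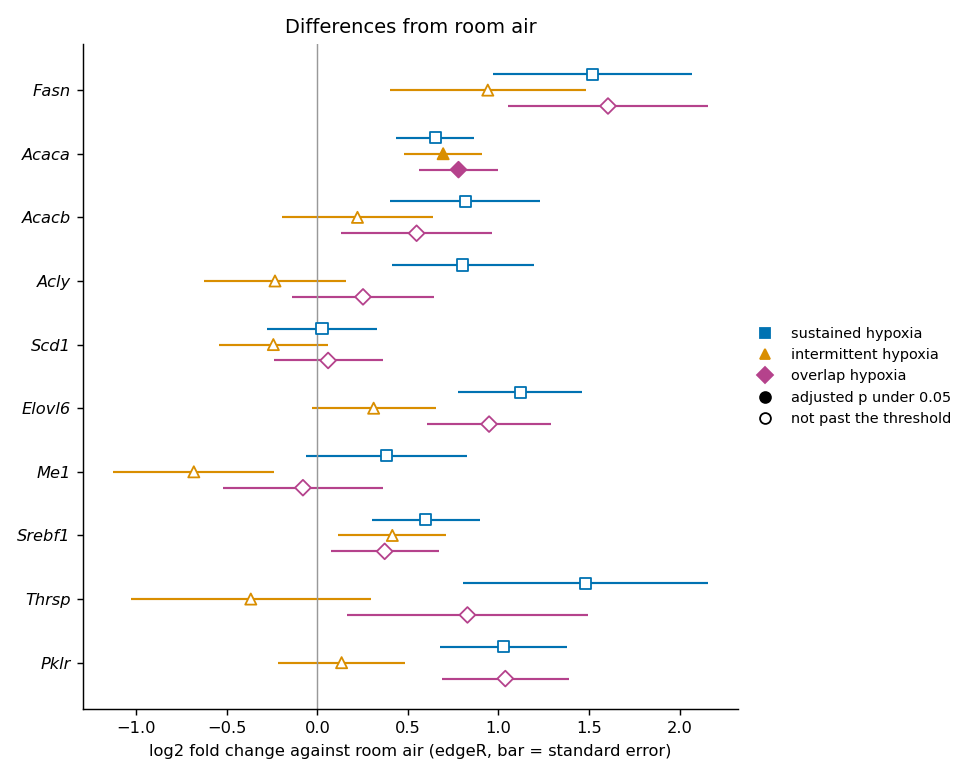
Log2 fold change of each gene against room air with its standard error, from edgeR on all 16 libraries; filled symbols have an adjusted p under 0.05. Acaca in intermittent (0.69) and overlap hypoxia (0.78) is filled, all 10 sustained hypoxia values lie above 0, and Scd1 lies near 0 in all 3.

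**Figure D4:**
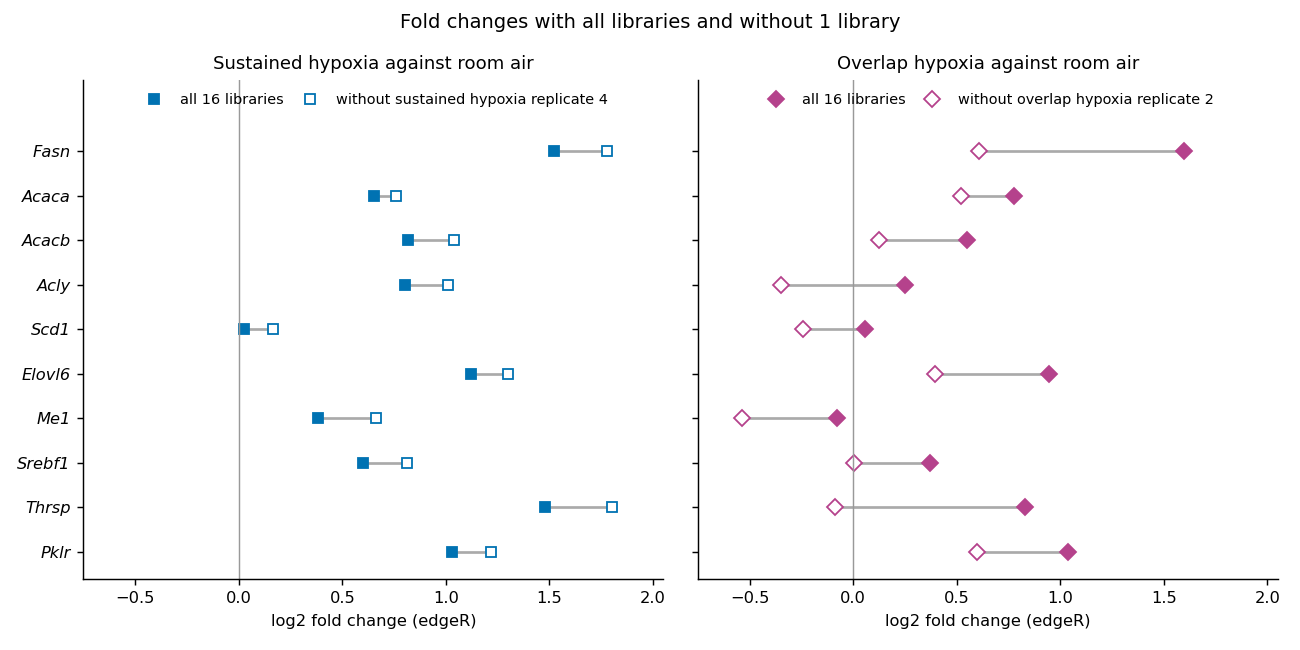
Log2 fold changes against room air with all 16 libraries (filled) and without 1 library (open): sustained hypoxia replicate 4 on the left, overlap hypoxia replicate 2 on the right. All 10 overlap hypoxia values are lower without replicate 2, with Fasn going from 1.61 to 0.609, and all 10 sustained hypoxia values are higher without replicate 4.

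Sustained and intermittent hypoxia differed in 1 of 10 members, beside 38.4% of all genes, and 9 of 10 values were higher in sustained hypoxia, with a median log2 difference of 0.70 against −0.03 over all genes. The member called was Thrsp, with a log2 difference of 1.85 (SE 0.684, edgeR adjusted p = 0.0490). This call held in 8 of 25 alternatives, and over all 25 the adjusted p ranged from 0.0142 to 0.918. Acly (1.04, SE 0.393, adjusted p = 0.0518), Pklr (0.89, SE 0.351, adjusted p = 0.0582), Elovl6 (0.81, SE 0.342, adjusted p = 0.0767) and Me1 (1.07, SE 0.448, adjusted p = 0.0771) lay just outside the threshold of edgeR's test. DESeq2 called these 4 together with Thrsp, and so did edgeR without sustained hypoxia replicate 4. No member had all sustained above all intermittent hypoxia libraries, beside 18% of all genes. With the ribosomal share as a covariate the median of the members was 0.069 and none was called. That share does not overlap between these groups, so the fit cannot separate it from the exposures.

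Overlap hypoxia was not called different from either single exposure for any member by edgeR. Against sustained hypoxia 0 of 10 were called by edgeR, DESeq2 or limma-voom, beside 0.165% of all genes called by edgeR. None had an unadjusted p under 0.05 in edgeR, beside 2978 of all 14553 genes. The values lay between −0.65 for Thrsp and 0.13 for Acaca, with a median of −0.20 against 0.02 over all genes. Without overlap hypoxia replicate 2 all 10 were lower in overlap than in sustained hypoxia, with a median of −0.708, and Acly (−1.15, edgeR adjusted p = 0.0203) and Elovl6 (−0.725, adjusted p = 0.044) were called. Against intermittent hypoxia 0 of 10 were called, beside 6.15% of all genes; 9 of 10 values were positive, with a median of 0.54 against 0.00 over all genes. The highest value relative to its error was that of Pklr (0.90, SE 0.352, unadjusted p = 0.0222, edgeR adjusted p = 0.127). It was the only member under 0.05 before adjustment in edgeR, beside 3689 of all 14553 genes. DESeq2 called Pklr (adjusted p = 0.0347) while limma-voom called none. The median against intermittent hypoxia without overlap hypoxia replicate 2 was −0.0379, with 5 values on each side of 0.

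The departure of overlap hypoxia from additivity is its log2 fold change minus the sum of those of the 2 single exposures, all against the same room air libraries. None of the 10 members was called by edgeR, DESeq2 or limma-voom, beside 0.454% of all genes called by edgeR. None had an unadjusted p under 0.05 in edgeR, beside 2544 of all 14553 genes. The values lay between −0.85 (SE 0.761) for Fasn and 0.28 (SE 0.426) for Scd1, with 8 negative and a median of −0.40 against 0.00 over all genes. Without overlap hypoxia replicate 2 all 10 were negative, with a median of −0.909, and again none was called.

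Across the 16 libraries the members followed Fasn to different degrees. The 9 relations with log2 CPM of Fasn were tested together by permutation (two-sided, 100000 resamples, n = 16). The closest was Elovl6 (Pearson r = 0.872, permutation p = 3e-05, adjusted 0.000135; Spearman rho = 0.738, adjusted permutation p = 0.00471). Srebf1 followed with r = 0.870 (permutation p = 2e-05, adjusted 0.000135) and rho = 0.838 (adjusted permutation p = 0.00036). Acaca (r = 0.840, rho = 0.85), Pklr (r = 0.827, rho = 0.691) and Acacb (r = 0.740, rho = 0.656) also passed by both measures, with adjusted permutation p of at most 0.013. Acly, Scd1, Me1 and Thrsp passed by Pearson r but not by Spearman rho (adjusted permutation p of rho = 0.141, 0.141, 0.231 and 0.0676). Libraries were permuted across groups here, although those of a group share their exposure. Without overlap hypoxia replicate 2 and sustained hypoxia replicate 2, the libraries farthest from the median of Fasn, r was 0.737 for Elovl6, 0.749 for Srebf1, 0.788 for Acaca and 0.651 for Pklr. For Scd1 r went by that step from 0.501 to 0.196 and for Me1 from 0.509 to 0.297, so the relations over all groups rest on those libraries for these genes. It also went down for Acly (0.694 to 0.446), Thrsp (0.689 to 0.470) and Acacb (0.740 to 0.569).

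**Figure D5:**
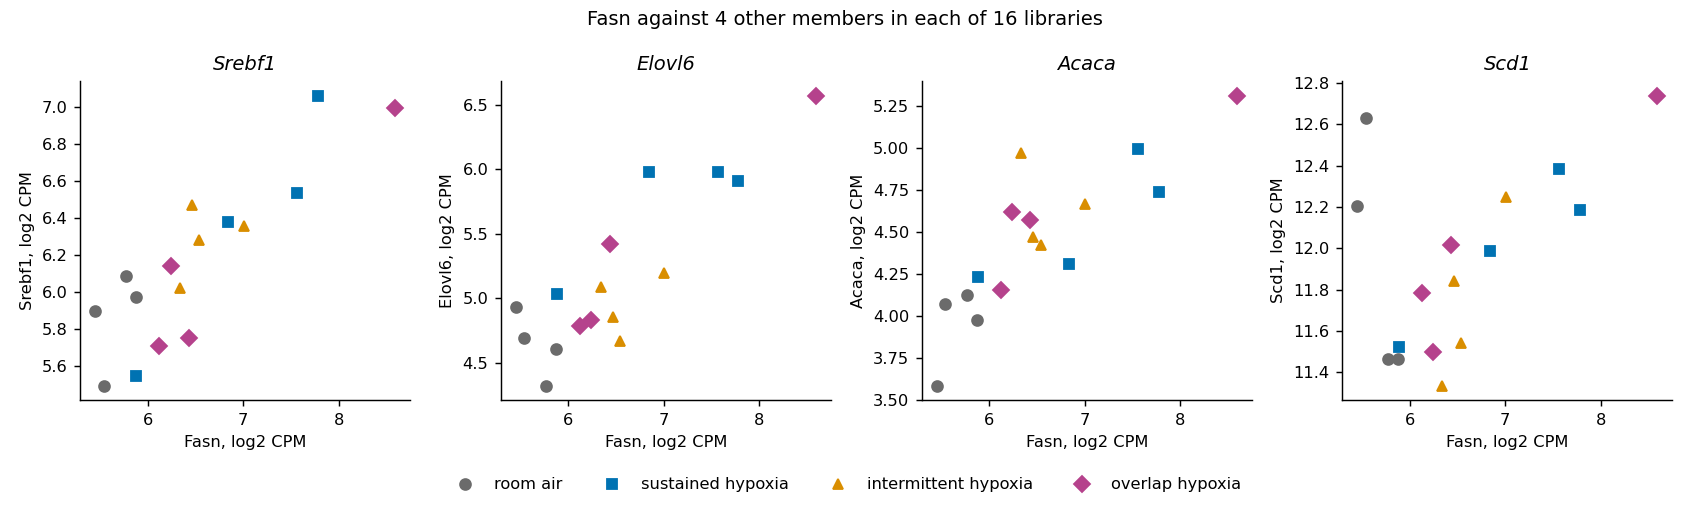
Log2 CPM of Srebf1, Elovl6, Acaca and Scd1 against that of Fasn in each of 16 libraries, coloured by group. The first 3 rise with Fasn (r = 0.870, 0.872 and 0.840), while 2 room air libraries with low Fasn have high Scd1 (r = 0.501).

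After the group means were taken off, so that only differences between libraries of the same group were left, the relation to Fasn was at least 0.622 for every member. It was 0.889 for Srebf1, 0.849 for Pklr, 0.846 for Elovl6, 0.841 for Acly and 0.622 for Scd1, with adjusted p between 0.0148 and 0.0330 from permutation within groups (two-sided, n = 16, 9 relations). Without overlap hypoxia replicate 2 and sustained hypoxia replicate 2 the values within groups lay between 0.468 for Scd1 and 0.791 for Srebf1. That of Me1 was 0.724 against 0.741 with them. The group means taken off still included both libraries, so these values are not free of them and cannot show how the relation stands without them. Over all 45 pairs of members the correlation within groups ran from 0.302 to 0.919 with a median of 0.728, as a description. These libraries share their depth and scaling across genes.

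The genes whose levels were most like those of Fasn over the 16 libraries, members and predicted genes aside, were Slc25a1 (r = 0.917), Gamt (0.901), Mid1ip1 (0.895), Ropn1l (0.879), Rab43 (0.872), Slc2a4 (0.870), Got2 (0.867) and Slc23a1 (0.861). Slc25a1 encodes the mitochondrial citrate carrier, Mid1ip1 the partner protein of SPOT14, and Gamt an enzyme of creatine synthesis. Slc25a1 stood at 109.5 ± 11.4 CPM in room air, 145 ± 27.6 CPM in sustained, 121 ± 13.6 CPM in intermittent and 127 ± 35.5 CPM in overlap hypoxia (mean ± SD, n = 4). Among the 14552 other tested genes ranked by this measure, Elovl6 came at 6, Srebf1 at 7, Acaca at 16 and Pklr at 22, while Me1 came at 826 and Scd1 at 869.

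Genes that supply acetyl-CoA and NADPH had 0 of 9 called in sustained and in overlap hypoxia, by edgeR, with 3 and 0 at an unadjusted p under 0.05 and medians of 0.41 and 0.16. Over all 14553 genes, 0.0481% and 6.29% were called in these comparisons, and 1672 and 3320 genes had an unadjusted p under 0.05. These values over all genes apply to every list in the paragraphs below as well. Acss2, the cytosolic acetyl-CoA synthetase, showed the same spread as the members in sustained hypoxia (55.6 to 243 CPM, against 58.4 to 77.2 CPM in room air; log2 1.26, SE 0.491, edgeR adjusted p = 0.339). In intermittent hypoxia 2 of 9 fell, beside 37.1% of all genes called, the cytosolic malate dehydrogenase gene Mdh1 (−0.49, edgeR adjusted p = 0.00959) and the pentose phosphate gene Taldo1 (−0.55, adjusted p = 0.0218). Sustained was above intermittent hypoxia for 3 of 9, beside 38.4% of all genes called, namely Mdh1 (0.74), Taldo1 (0.80) and Pgd (0.72), the last another pentose phosphate enzyme gene.

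Among 14 tested genes of elongation, desaturation and acyl-CoA formation, 0 were called in sustained or overlap hypoxia by edgeR, beside 0.0481% and 6.29% of all genes. In each, 5 had an unadjusted p under 0.05, beside 1672 and 3320 of all 14553 genes. In intermittent hypoxia 2 rose and 5 fell, beside 37.1% of all genes called. Tecr, the last enzyme of the elongation cycle, rose (69.6 ± 19.9 to 129 ± 28.8 CPM, log2 0.89, edgeR adjusted p = 0.00394), and Elovl3, an elongase of very long chains, fell from 126 ± 33.0 to 36.8 ± 16.7 CPM (log2 −1.78, SE 0.379, adjusted p = 0.00237). Acsl5, an acyl-CoA synthetase, fell as well (−0.81, adjusted p = 0.00127). Of 11 tested genes of triglyceride assembly, 2 rose and 1 fell in intermittent hypoxia (37.1% of all genes called), 1 rose in overlap hypoxia (6.29% of all genes called), and 0 were called in sustained hypoxia by edgeR, with 4 at an unadjusted p under 0.05. Lpin2, a phosphatidate phosphatase gene, rose in intermittent hypoxia (128 ± 29.6 to 251.4 ± 44.6 CPM, log2 0.97, edgeR adjusted p = 0.000383), and Agpat3, an acyltransferase gene, rose in intermittent (0.55, adjusted p = 0.00405) and overlap hypoxia (0.50, adjusted p = 0.0387). The diglyceride acyltransferase gene Dgat2 was higher in sustained than in intermittent hypoxia (0.49, SE 0.160, adjusted p = 0.0201).

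Of 12 ChREBP, LXR and other transcriptional regulators 4 rose and 3 fell in intermittent hypoxia, where 37.1% of all genes were called. Mlxipl, which encodes ChREBP, stood at 34.4 ± 11.3 CPM in room air, 35.5 ± 6.57 CPM in sustained, 142 ± 29.7 CPM in intermittent and 71.0 ± 25.2 CPM in overlap hypoxia (mean ± SD, n = 4). Its log2 fold change was 2.047 (SE 0.263, edgeR adjusted p = 3.35e-05) in intermittent and 1.05 (SE 0.256, adjusted p = 0.0256) in overlap hypoxia, and overlap was below intermittent hypoxia (−1.001, adjusted p = 0.0321). Mlx, which encodes the obligate partner of ChREBP, went the other way, from 34.9 ± 2.11 CPM in room air to 17.1 ± 2.53 CPM in intermittent (log2 −1.03, adjusted p = 3.74e-05) and 22.5 ± 4.59 CPM in overlap hypoxia (−0.62, adjusted p = 0.0173). The LXR alpha gene Nr1h3 (−0.80, adjusted p = 0.00141) and Usf1, an E-box factor gene (−0.61, adjusted p = 0.000795), fell in intermittent hypoxia too. In sustained hypoxia 0 of the 12 were called by edgeR and 0 had an unadjusted p under 0.05.

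Of 10 genes of SREBP processing and control, 3 rose and 4 fell in intermittent hypoxia (37.1% of all genes called), 1 rose and 1 fell in overlap hypoxia (6.29% of all genes called), and 0 were called in sustained hypoxia by edgeR, with 4 at an unadjusted p under 0.05. Insig2, which encodes a protein that holds SREBP in the endoplasmic reticulum, stood at 123 ± 31.2 CPM in room air, 60.5 ± 13.5 CPM in sustained, 47.6 ± 7.68 CPM in intermittent and 57.1 ± 17.2 CPM in overlap hypoxia. It fell in intermittent (log2 −1.37, SE 0.228, edgeR adjusted p = 0.000193) and overlap hypoxia (−1.11, SE 0.227, adjusted p = 0.0111), and in sustained hypoxia the value was −1.03 (SE 0.226, adjusted p = 0.0959). Scap, the SREBP escort gene, fell in intermittent hypoxia (−0.36, adjusted p = 0.0233), and Sik1, a kinase gene, rose there (2.28, adjusted p = 0.000451).

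Of 10 genes of glucose and fructose entry, 0 were called in sustained hypoxia by edgeR with 6 at an unadjusted p under 0.05, 1 fell in intermittent hypoxia (37.1% of all genes called) and 1 rose in overlap hypoxia (6.29%). Khk, the fructokinase gene, stood at 465 ± 85.1 CPM in room air and 645 ± 83.3 CPM in sustained hypoxia, and fell to 309 ± 81.01 CPM in intermittent hypoxia (log2 −0.59, edgeR adjusted p = 0.0212). Gpi1, glucose-6-phosphate isomerase, rose in overlap hypoxia (0.61, adjusted p = 0.0297). Txnip, a glucose-responsive ChREBP target, stood at 129 ± 14.1 CPM in room air and 56.2 ± 15.5 CPM in sustained hypoxia (−1.19, SE 0.273, adjusted p = 0.122), opposite in sign to Pklr. In the list of the SPOT14 partner and the AMPK control of acetyl-CoA carboxylase, 1 of 9 rose and 2 fell in intermittent hypoxia, 1 rose in overlap hypoxia (the same shares of all genes apply), and 0 were called in sustained hypoxia by edgeR, with 3 at an unadjusted p under 0.05. Stk11, which encodes the LKB1 kinase upstream of AMPK, rose in both (1.198, adjusted p = 6.49e-05, and 0.93, adjusted p = 0.00761). Mlycd, malonyl-CoA decarboxylase, which removes the product of the carboxylases, fell in intermittent hypoxia from 153 ± 17.8 to 89.8 ± 9.496 CPM (−0.77, adjusted p = 0.000238).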

How the data were processed

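RNA from whole liver was sequenced in 16 libraries, 4 per group by the labels. The deposited table holds RSEM expected counts per gene (49.3% of the nonzero values are not whole); the tools were Bowtie 1.3.0 and RSEM on GRCm38, per the submitters' processing notes. No source used here states the authors' annotation release or strand setting; coordinates here are from GENCODE M21. Counts were rounded, filtered with filterByExpr, scaled by TMM and fitted in edgeR 4.0.16 (R 4.3.3) with 1 coefficient per group over all libraries; a call needed an adjusted p (Benjamini-Hochberg) under 0.05 over 14553 genes, in each of 7 comparisons. The fit was tested on simulated counts with the same dispersion for every gene and no outlying library. That test does not cover members with libraries as far apart as those described above. Alternatives were other scalings, no filter, DESeq2 1.42.0, limma 3.58.1 (voom), a replicate block, ribosomal share, length and GC offsets, only the compared groups, and leaving out each library. Named genes were all members, up to 3 called genes per direction from 7 further lists (where none was called, the gene with the lowest p; 1 gene that the rule names is not reported here), and the 8 genes likest Fasn. Members and lists were chosen with earlier results of these data known. Nothing in the labels says that libraries came from separate animals, so p-values measure the spread between libraries, which may be technical.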

Additional observations from a re-analysis of the deposited data

Results flagged for a closer look

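In 5 of 40 sets of 4 libraries (10 members in 4 groups), 1 library lay farther from the rest than Dixon's 95% critical value allows, where chance flags about 1 in 20. The measure is the gap to the nearest library as a share of the whole range. Overlap hypoxia replicate 2 was the distant library in 4 of them: Fasn (387 CPM, gap 0.947), Me1 (384 CPM, gap 0.951), Thrsp (1126 CPM, gap 0.908) and Pklr (162 CPM, gap 0.838). Sustained hypoxia replicate 4 was the distant library for Elovl6 (32.8 CPM, gap 0.902), on the low side. The members are not independent of each other, so these are 2 libraries rather than 5 separate events.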

How the results depend on the processing

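Of 480 log2 fold changes of members against room air with 1 library left out, 455 kept direction and side of the threshold and 15 changed sign. These include fits without a library of a group outside the comparison, which can hardly move a value, so the share kept overstates stability. For example, the sustained hypoxia median of 0.81 was 0.8105 without overlap hypoxia replicate 2. Under the other settings 247 of 270 kept direction and side of the threshold and 8 changed sign. The cause of each change below was not tested, except that fits without a library or a group hold fewer samples. For sustained hypoxia against room air the number of genes called (7) became 61 with no filter, 175 with DESeq2, 246 with limma-voom, 4 with the ribosomal share as a covariate and 91 with only the compared groups, and 2 to 57 with 1 library left out (57 without overlap hypoxia replicate 2). For intermittent hypoxia (5404) the covariate gave 77, and for sustained against intermittent hypoxia (5584) it gave 1. For overlap hypoxia against room air (916) DESeq2 gave 1466, the covariate 361, and leaving out a library 174 (without room air replicate 3) to 1186. For overlap against sustained hypoxia (24) the counts were 86 with upper-quartile scaling, 354 with no filter, 896 with DESeq2, 1210 with limma-voom, 0 with the covariate, 2 with only the compared groups, and 0 to 1547 with 1 library left out (1547 without overlap hypoxia replicate 2). For overlap against intermittent hypoxia (895) they were 1584 with DESeq2, 446 with limma-voom, 4 with the covariate, 0 with only the compared groups, and 16 (without overlap hypoxia replicate 4) to 1406 (without intermittent hypoxia replicate 4). For the departure from additivity (66) they were 192 with no filter, 540 with DESeq2, 277 with limma-voom, 7 with the covariate, 31 with length and GC offsets, and 2 to 241 with 1 library left out; only the compared groups gives no value there.

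Members called in sustained hypoxia against room air (0) became 2 with DESeq2, 2 with limma-voom, 1 with only the compared groups and 0 to 1 with 1 library left out. In intermittent hypoxia (1) they became 0 with the covariate, 0 with length and GC offsets, 3 with only the compared groups (Acaca, Srebf1 and Fasn) and 0 to 2 with 1 library left out. In overlap hypoxia (1) they became 4 with DESeq2, 0 with the covariate, 0 with length and GC offsets, 0 with only the compared groups and 0 to 1 with 1 library left out. For overlap against sustained hypoxia (0) leaving out a library gave 0 to 2, and for overlap against intermittent hypoxia (0) DESeq2 gave 1. For sustained against intermittent hypoxia (1) they became 0 with upper-quartile scaling, 0 with no filter, 5 with DESeq2, 4 with limma-voom, 0 with the covariate, 3 with length and GC offsets (Acaca, Acly and Acacb), 2 with only the compared groups and 0 to 5 with 1 library left out.

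Signs turned in intermittent hypoxia for Acly (0.618) and Thrsp (0.795) with the covariate, and for Fasn (−0.117), Acacb (−0.657) and Srebf1 (−0.296) with length and GC offsets. With 1 library left out, Scd1 ran from −0.434 to 0.0256 and Pklr from −0.0877 to 0.309 there. In overlap hypoxia Acly was −0.125 with limma-voom, and with length and GC offsets Me1 was 0.0149 and Srebf1 −0.0736. With 1 library left out, Acly ran from −0.35 to 0.449, Me1 from −0.534 to 0.136, Scd1 from −0.243 to 0.335 and Thrsp from −0.0868 to 1.19 in overlap hypoxia, and Scd1 from −0.122 to 0.308 in sustained hypoxia.

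Of the genes called in overlap hypoxia against room air 54.1% were higher, against 65.1% with upper-quartile scaling and 38.4% with length and GC offsets; against intermittent hypoxia the share was 52.1%, 40.6% and 66.3%. With upper-quartile scaling the median log2 value of all genes was 0.121 rather than 0.03 for intermittent hypoxia against its controls, and −0.117 rather than −0.03 for sustained against intermittent hypoxia.

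Whether replicate numbers pair the libraries is unclear. Over 24 pairs of same-numbered libraries the correlation of deviations from the group means ran from −0.103 to 0.183 (median 0.0369), and 4 were over 0.1. The own number was the best match among the 4 candidates in 10 of the 24. With a replicate block the genes called became 21 in sustained hypoxia against room air, 126 for overlap against sustained hypoxia and 290 for the departure, and members called for sustained against intermittent hypoxia became 0.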
